A study of Mus musculus with 6 samples.

Results

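The collagen genes of the mouse heart were described here through every array probe whose gene symbol began with Col, a number, the letter a and a further number. This name rule matched 61 of the 25697 probes in the heart table, of 37 of its 18138 gene symbols. Of these, 58 probes stood for 36 collagen genes, and the remaining 3 were for Col4a3bp, which encodes a ceramide transfer protein and is not a collagen. The collagens were sorted by the type of protein they encode into fibrillar collagens (17 probes of 11 genes), basement membrane collagens (13 probes of 8 genes) and all other collagens (28 probes of 17 genes).

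RNA came from hearts of male FVB mice (FVB/N in the study's methods) at postnatal day 6, from 3 hSRY-ON and 3 hSRY-OFF animals, and was hybridised to Illumina MouseRef-8 BeadChips. The hSRY-ON mice carried 1 copy of the Signalox-hSRY transgene, in which Cre recombinase, supplied by the egg of a Ddx4-Cre mother, had placed human SRY and EGFP behind the broadly active CAG promoter from the single-cell embryo onward. The hSRY-ON animals used for the arrays were chosen not to carry Ddx4-Cre themselves. The study's text describes the hSRY-OFF group both as Signalox-hSRY mice without recombination and as littermates that were Ddx4-Cre only or non-transgenic, so the exact control genotype of each heart is not known here. No probe in the table was named for human SRY, EGFP or DsRed2. The single probe for mouse Sry was detected on 0 of 6 arrays, and as a mouse sequence it does not check the transgene. The question was which collagen genes differed between hearts with and without the active human SRY transgene.

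Collagens are proteins of the extracellular matrix built from 3 chains wound into a triple helix. Fibrillar collagens, chiefly types I and III in the heart, form the tension-bearing fibres between muscle cells and are made mainly by fibroblasts. Type IV collagen forms the sheet-like network of basement membranes around vessels and cardiomyocytes, and FACIT collagens such as type XII lie on the surface of fibrils. Chains are hydroxylated and folded inside the cell, trimmed by propeptidases after secretion, and then cross-linked by enzymes of the lysyl oxidase and transglutaminase families.

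Between 12138 and 13172 probes were detected per array (detection p-value under 0.05), which was 47.2% to 51.3% of the table, and hSRY-OFF replicate 3 was the dimmest array. Values are log2 intensities after background correction and quantile normalization, and they can be compared between arrays for 1 probe but not between probes. Of the collagen probes, 15 were detected on no array. Probes detected on at least 3 arrays entered the test, 32 collagen probes of 24 genes among them, and a probe was called when limma's Benjamini-Hochberg adjusted p over all 12970 tested probes was under 0.05. This filter passes a probe seen in 1 group alone, so the tested collagens are not all collagens. Nothing in the labels says how the animals relate beyond being separate samples, so p-values measure the spread between these hearts.

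Collagen genes were higher or not called in hSRY-ON hearts, and 0 were called lower. Of the 32 tested probes 10 were called (31.25%), all of them higher, beside 27.5% of all tested probes called in either direction, 13.8% called higher and 13.7% called lower. Of the 24 genes, each by its brightest probe, 9 rose, beside 14.9% of all tested genes. The count of 10 was 6 without hSRY-OFF replicate 1, 6 without hSRY-OFF replicate 2, and 5 without normalization between arrays, where 1 probe was called lower. Of the 10 called probes 2, those of Col27a1 and the dimmer Col4a6 probe, passed the filter through the hSRY-ON hearts alone and so had to differ, and with detection required on all 6 arrays 7 of 24 probes were called. The median log2 fold change, hSRY-ON minus hSRY-OFF, was 0.24 over the 24 collagen genes and 0.0026 over all 9660 tested genes. Without adjustment 14 of the 32 collagen probes had p under 0.05, beside 40.3% of all tested probes. The hSRY-ON and hSRY-OFF values did not overlap for 16 of the 32 probes, where 45.2% of all tested probes did not overlap.

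The 3 classes gave unlike counts, beside 14.9% of all tested genes called higher and 13.9% called lower. Of 8 tested fibrillar genes 1, Col27a1, rose and 7 were not called, and the median log2 fold change was 0.077. Col27a1 passed the filter through the hSRY-ON hearts alone. Of 7 tested basement membrane genes 4 rose and 3 were not called, around a median of 0.48, which was -0.15 over all 11 tested probes of the class in place of 1 probe per gene and 0.22 without normalization between arrays. The calls of Col4a1 and Col4a2 among them were lost with median scaling in place of quantile normalization. Among the other collagens 4 of 9 rose and 5 were not called, with a median of 0.32. Whether the classes differ from each other was not tested.

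**Figure D1:**
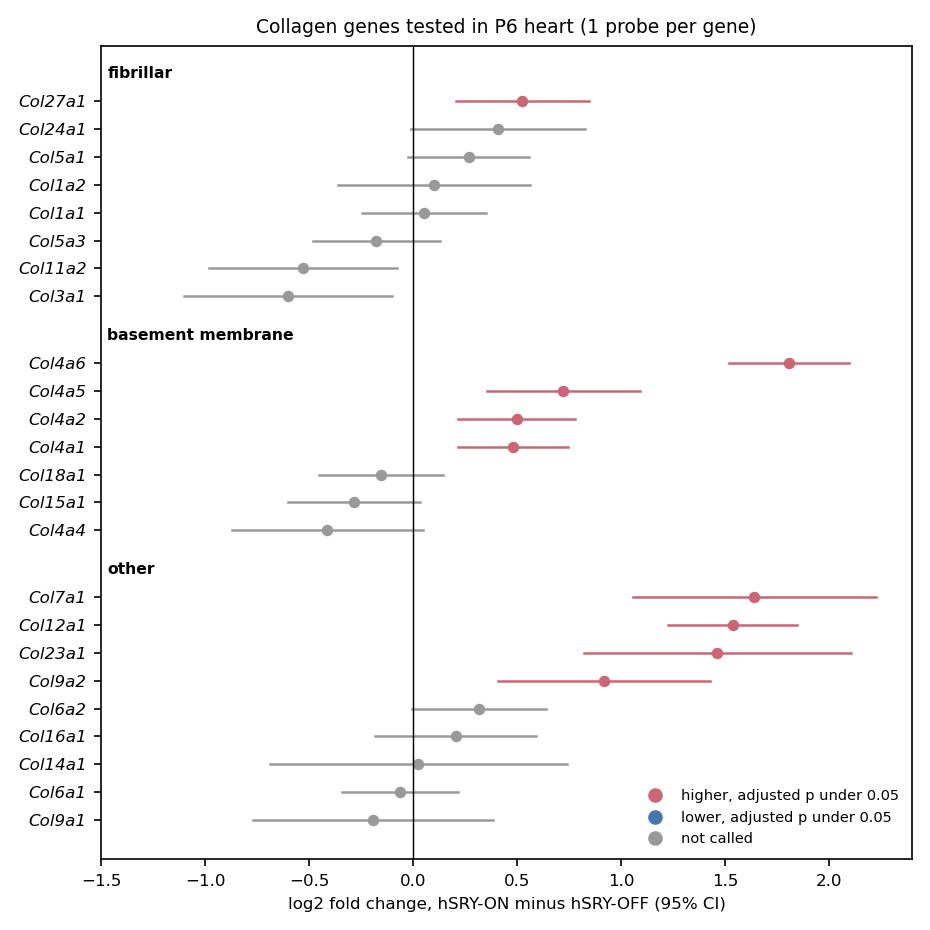
Log2 fold change (hSRY-ON minus hSRY-OFF, x axis) with its 95% confidence interval for each of the 24 tested collagen genes, 1 probe per gene, ordered by class. Red points were called higher (9 genes), grey points were not called (15 genes), and intervals are not adjusted for multiple testing. The 4 type IV genes called and 4 of the other collagens lie to the right, and Col3a1 and Col11a2 lie furthest to the left among the fibrillar genes.

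Type IV chains accounted for every called basement membrane gene. Col4a6 encodes a chain that joins the Col4a5 chain in a type IV network found in smooth muscle and some other basement membranes, and its probe ILMN_1254059 read 5.85, 5.75 and 5.84 in hSRY-OFF replicates 1 to 3. In hSRY-ON replicates 1 to 3 it read 7.68, 7.46 and 7.73. The lowest hSRY-ON heart thus lay far above the highest hSRY-OFF heart, with means of 5.82 ± 0.05 and 7.63 ± 0.15 (SD, n = 3 each). This was a log2 fold change of 1.81 with a standard error of 0.12 (3.51-fold, limma adjusted p = 0.000129), the largest among the tested collagen probes under this background correction. Without background correction it was 0.79, still called, and Col12a1 was larger at 1.08. A further Col4a6 probe, ILMN_2854065, was below the detection limit in 3 of 3 hSRY-OFF hearts and detected in 3 of 3 hSRY-ON hearts, at 6.138, 5.998 and 6.332 (5.13, 4.97 and 5.13 in hSRY-OFF). By the group means its level was at least 1.66-fold higher in hSRY-ON, a bound taken from the lowest detected signal on each hSRY-OFF array. The bound holds under this background correction only and leaves out the spread between hearts. This probe entered the test through the hSRY-ON hearts alone, so its call (limma adjusted p = 0.00133) adds no support to that of the first probe, and without background correction its log2 fold change was 0.31. The third Col4a6 probe was detected on no array.

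Col4a5, which encodes the partner chain, read 10.57, 10.46 and 10.95 in the hSRY-OFF hearts and 11.32, 11.52 and 11.31 in the hSRY-ON hearts. The groups did not overlap, although hSRY-OFF replicate 3 came closer to the hSRY-ON values than hSRY-OFF replicates 1 and 2. The log2 fold change was 0.72 with a standard error of 0.16 (limma adjusted p = 0.0130). The call was lost without hSRY-OFF replicate 1 (adjusted p = 0.0525) and without normalization between arrays (adjusted p = 0.162).

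Col4a1 and Col4a2 encode the chains of the most widespread type IV network, and both rose by a similar amount. Col4a1 read 14.06, 14.11 and 14.15 in the hSRY-OFF hearts against 14.66, 14.61 and 14.49 in the hSRY-ON hearts. Its log2 fold change was 0.48 with a standard error of 0.11 (limma adjusted p = 0.0180). Col4a2 read 14.119, 14.001 and 14.014 in hSRY-OFF and 14.585, 14.638 and 14.404 in hSRY-ON, a log2 fold change of 0.50 with a standard error of 0.12 (limma adjusted p = 0.0199). For both genes all hSRY-ON hearts lay above all hSRY-OFF hearts. Their calls depended on the scaling between arrays. Under the scaling in the manner of TCC, the method the study names, the log2 fold changes were 0.33 for Col4a1 (adjusted p = 0.1003) and 0.34 for Col4a2 (adjusted p = 0.0736), and with no scaling they were 0.22 and 0.23. Both calls were also lost without hSRY-OFF replicate 1, hSRY-OFF replicate 2 or hSRY-ON replicate 1, with adjusted p between 0.0518 and 0.0726, and that of Col4a2 without hSRY-ON replicate 2 (adjusted p = 0.0590).

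The remaining basement membrane genes were not called. Both Col4a4 probes were dim and had log2 fold changes of -0.27 and -0.41. The brighter one was called lower only when hSRY-ON replicate 1 was left out, at a log2 fold change of -0.63 (adjusted p = 0.0322). The single Col4a3 probe was detected on 1 array and was not tested. Col15a1 and Col18a1 encode multiplexins, basement membrane collagens with interrupted helices, and Col18a1 carries the endostatin fragment. Col15a1 read 11.80, 11.63 and 12.02 in hSRY-OFF and 11.48, 11.49 and 11.62 in hSRY-ON, and the groups did not overlap. Its log2 fold change of -0.29, with a 95% interval from -0.60 to 0.032, had an adjusted p of 0.160 in limma. The 3 Col18a1 probes gave -0.15, -0.24 and -0.31, with overlapping groups in each.

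**Figure D2:**
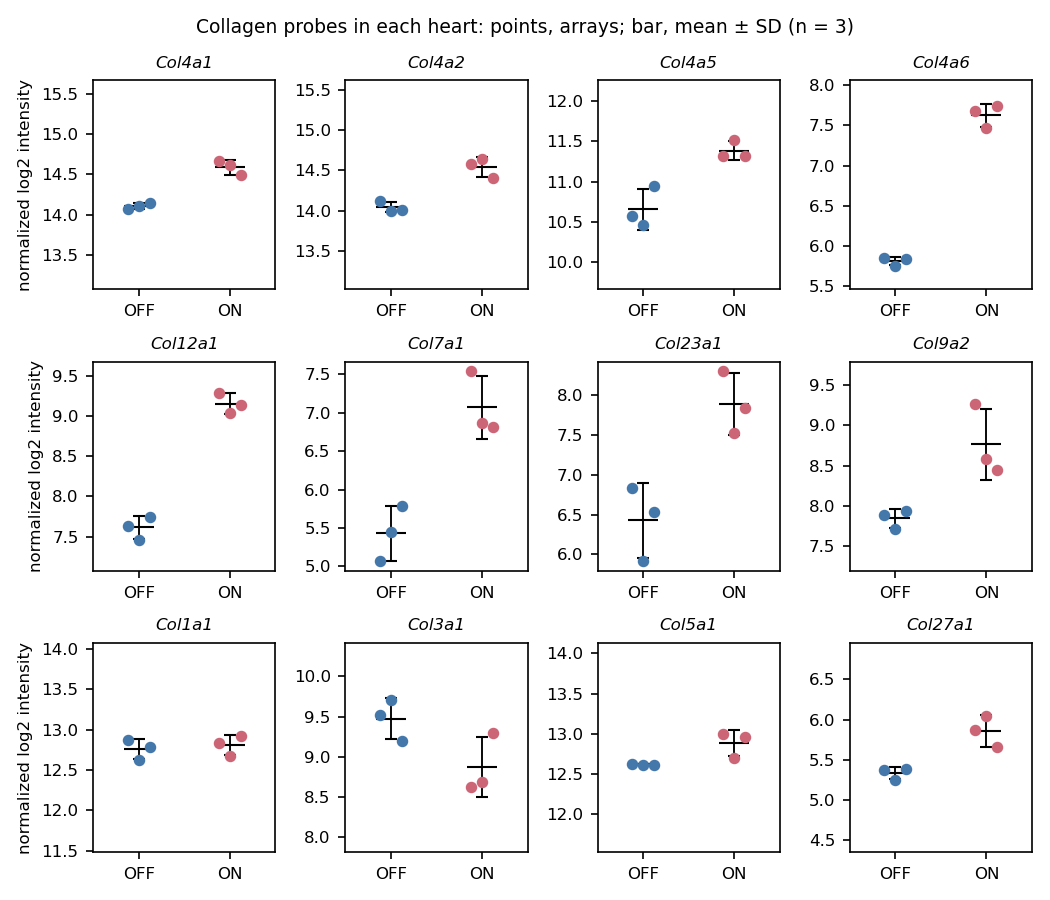
Normalized log2 intensity (y axis, own range in each panel) of 12 collagen probes in each of 3 hSRY-OFF (blue) and 3 hSRY-ON (red) hearts, with the mean and SD as black bars. The 9 called genes have no overlap between groups, as in Col4a6 with 5.75 to 5.85 against 7.46 to 7.73, whereas Col1a1 and Col3a1 overlap and Col5a1 was not called.

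Type IV genes lie in head-to-head pairs, and the stretches just upstream of the Col4a5 and Col4a6 starts are shown because these partners were both called. They come from RefSeq promoter windows on GRCm38.p6, each 250 bases before to 50 after the annotated start, of which only the part ahead of the annotated gene is printed. Col4a6 is on the minus strand (chrX:141474096-141474326) and Col4a5 on the plus strand (chrX:141475169-141475369), each given 5′ to 3′ on its own strand, with 231 and 201 bases. Col7a1 (chr9:108953336-108953585, plus strand, 250 bases) is shown as a called collagen gene in which both a CCAAT and a GGGCGG match lie ahead of the start. Col3a1 (chr1:45311288-45311537, plus strand, 250 bases) is shown as the one collagen gene with an AACAAT match, the core bound by SRY and related HMG-box factors. Capitals mark matches on either strand to CCAAT or to the GC box GGGCGG in the first 3 stretches, where TATAAA was looked for as well, and to AACAAT in that of Col3a1. The Col4a6 stretch holds none of these letters and the Col4a5 stretch 1 CCAAT.
Col4a6: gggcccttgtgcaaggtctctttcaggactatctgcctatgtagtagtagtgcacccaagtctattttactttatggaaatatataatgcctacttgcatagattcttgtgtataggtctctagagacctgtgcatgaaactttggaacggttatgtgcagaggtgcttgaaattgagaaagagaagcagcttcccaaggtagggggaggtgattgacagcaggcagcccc
Col4a5: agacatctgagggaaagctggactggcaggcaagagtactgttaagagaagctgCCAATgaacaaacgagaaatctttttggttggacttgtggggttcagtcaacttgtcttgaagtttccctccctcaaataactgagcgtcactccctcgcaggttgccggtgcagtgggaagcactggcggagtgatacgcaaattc
Col7a1: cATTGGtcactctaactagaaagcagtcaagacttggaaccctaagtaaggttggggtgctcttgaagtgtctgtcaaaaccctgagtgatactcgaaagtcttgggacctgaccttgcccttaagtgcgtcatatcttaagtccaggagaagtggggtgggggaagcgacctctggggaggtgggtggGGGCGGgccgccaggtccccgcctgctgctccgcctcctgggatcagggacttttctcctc
Col3a1: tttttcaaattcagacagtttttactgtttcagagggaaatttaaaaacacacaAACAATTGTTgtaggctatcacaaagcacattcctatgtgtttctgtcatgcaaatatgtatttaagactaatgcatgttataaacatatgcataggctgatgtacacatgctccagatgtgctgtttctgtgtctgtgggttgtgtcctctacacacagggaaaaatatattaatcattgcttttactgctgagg

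Windows were found for 29 of the 36 collagen genes, among them 8 of the 9 called genes. AACAAT, or ATTGTT on the other strand, was in 0 of 8 windows of called collagen genes and in 1 of 13 windows of tested collagens that were not called, that of Col3a1, where both strands match within 1 palindrome. Of all 27025 genes with windows, 12.2% held it, and of the 6189 genes tested on the array with a window 7.1% did. AACAAAG or CTTTGTT was in 0 of 8 called collagen windows, beside 4.8% of tested genes, and among all collagens Col28a1 alone held it. The GC-box core GGGCGG or CCGCCC was in 8 of 8 windows of called collagens and in 7 of 13 of those tested and not called, beside 69.3% of tested genes. CCAAT or ATTGG was in 4 of 8 and 5 of 13, beside 43.2%, and TATAAA or TTTATA in 0 of 8 and 2 of 13, beside 9.0%. These are matches of letters in whole windows, transcribed bases included, and the motifs were searched without regard to other binding sites. An AACAAT match and a CCAAT match cannot be the same bases, since they differ in the base before CAAT.

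Fibrillar collagens showed 1 call, the dim gene Col27a1. Col1a1, which encodes the main chain of type I collagen, read 12.87, 12.62 and 12.78 in the hSRY-OFF hearts and 12.83, 12.68 and 12.92 in the hSRY-ON hearts. The groups overlapped throughout, and the log2 fold change was 0.052 with a 95% interval from -0.25 to 0.35 (limma adjusted p = 0.794). Its partner chain Col1a2 was measured by a dim probe at 0.10, with an interval from -0.36 to 0.56. The direction of both genes turned under some settings, to -0.071 for Col1a1 and -0.013 for Col1a2 without normalization.

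Col3a1, which encodes type III collagen, was measured by 2 probes that were both lower on average in hSRY-ON but not called. ILMN_2683958 read 9.51, 9.70 and 9.20 in hSRY-OFF and 8.63, 8.69 and 9.30 in hSRY-ON. Hearts hSRY-ON 1 and 2 lay below every hSRY-OFF heart, and hSRY-ON replicate 3 lay within their range. The log2 fold change was -0.60 with a standard error of 0.22 (limma adjusted p = 0.0757). The probe ILMN_1258629 had -0.79 with a standard error of 0.32 (limma adjusted p = 0.103). Col3a1 was called lower by 1 of these probes without background correction, with a larger offset, without normalization, with an intensity trend, without hSRY-OFF replicate 3 and without hSRY-ON replicate 3, and the lowest value was -1.06 (without hSRY-OFF replicate 3, adjusted p = 0.0402).

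Col5a1, a chain of type V collagen that helps start type I fibrils, read 12.63, 12.61 and 12.62 in hSRY-OFF and 13.00, 12.70 and 12.96 in hSRY-ON. All hSRY-ON hearts were above all hSRY-OFF hearts, and the log2 fold change of 0.27 (95% interval -0.024 to 0.56) had an adjusted p of 0.152 in limma. It was called only when limma's variance prior followed the intensity (adjusted p = 0.0451). The minor fibrillar genes Col24a1, Col5a3 and Col11a2 had values between -0.53 and 0.52 and were not called. The higher of the Col24a1 probes was called only without hSRY-OFF replicate 1, at 0.72 (adjusted p = 0.0187).

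Col27a1 encodes a fibrillar collagen best known from cartilage. It was below the detection limit in 3 of 3 hSRY-OFF hearts and detected in 3 of 3 hSRY-ON hearts, which read 5.87, 6.05 and 5.66. By the group means its level was at least 1.35-fold higher in hSRY-ON under this background correction. That bound leaves out the spread between hearts. The probe entered the test through the hSRY-ON hearts alone, so a difference was built into its selection. Its adjusted p in limma (0.0268) is given as a description. The call was lost in 10 of the 14 alternative settings that tested the probe, with a log2 fold change as low as 0.15 without background correction. The hSRY-OFF readings were 5.37, 5.25 and 5.39.

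Among the collagens outside these classes 4 rose, and 3 of them by over 1.4 on the log2 scale, the other being Col9a2. Col12a1, a FACIT collagen that coats type I fibrils, read 7.63, 7.46 and 7.75 in hSRY-OFF and 9.29, 9.03 and 9.14 in hSRY-ON. The groups were far apart, at means of 7.61 ± 0.15 and 9.15 ± 0.13 (SD, n = 3 each). This gave a log2 fold change of 1.54 with a standard error of 0.13 (2.91-fold, limma adjusted p = 0.000376).

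Col7a1 encodes the collagen of anchoring fibrils, known from skin. Its probe ILMN_2901944 read 5.07, 5.44 and 5.78 in hSRY-OFF, where it was detected in 2 of 3 hearts, and 7.55, 6.86 and 6.81 in hSRY-ON. All hSRY-ON hearts were higher, hSRY-ON replicate 1 the most. The log2 fold change was 1.64 with a standard error of 0.25 (limma adjusted p = 0.00308), and without background correction it was 0.61. The other Col7a1 probe was detected on no array.

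Col23a1, a transmembrane collagen, read 6.84, 5.91 and 6.53 in hSRY-OFF and 8.30, 7.53 and 7.84 in hSRY-ON. The hSRY-OFF hearts were spread more widely (SD 0.47) than for Col4a6 or Col12a1, and still did not reach the hSRY-ON values. The log2 fold change was 1.46 with a standard error of 0.28 (limma adjusted p = 0.00741), and without background correction it was 0.74. The calls of Col12a1, Col23a1, Col7a1 and the brighter Col4a6 probe were kept in each alternative setting that tested them.

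Col6a1, Col6a2 and the FACIT genes Col14a1, Col16a1 and Col9a1 were not called. Col6a1, a chain of the beaded filaments around cells, read 12.82, 12.97 and 12.97 in hSRY-OFF and 12.76, 12.83 and 12.97 in hSRY-ON by its brightest probe. The groups overlapped, and the log2 fold change was -0.064 (95% interval -0.34 to 0.22). Its other probes gave -0.077 and -0.24. Col6a2, its partner chain, had a log2 fold change of 0.32 with no overlap between groups (limma adjusted p = 0.130), and was called without hSRY-OFF replicate 3 at 0.43 (adjusted p = 0.0484). Col16a1, Col14a1 and Col9a1 had log2 fold changes of 0.20, 0.026 and -0.19.

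The balance between chains that assemble or mix was compared within each heart, as the difference of their log2 values, for 4 pairs. With 3 hearts a group the smallest p of the exact two-sided permutation test is 0.1, so none can pass 0.05. The difference Col4a1 minus Col4a2 changed by -0.017 (exact p = 0.8), and Col1a1 minus Col1a2 by -0.051 (exact p = 0.9). Col1a2 was read by a dim probe, whose folds the offset compresses, so the latter pair says little about chain balance. The difference Col3a1 minus Col1a1 was -3.28 ± 0.33 in hSRY-OFF and -3.94 ± 0.30 in hSRY-ON (SD, n = 3 each). This was lower in 3 of 3 hSRY-ON hearts than in every hSRY-OFF heart, a change of -0.65 (exact p = 0.1, adjusted over the 4 pairs 0.2). Col6a1 minus Col6a2 was 1.59 ± 0.23 in hSRY-OFF and 1.203 ± 0.096 in hSRY-ON, again without overlap (change -0.38, exact p = 0.1, adjusted 0.2). The sign of both small changes turned when single hearts were left out, and those of Col3a1 and Col6a1 did not in the settings tried.

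**Figure D3:**
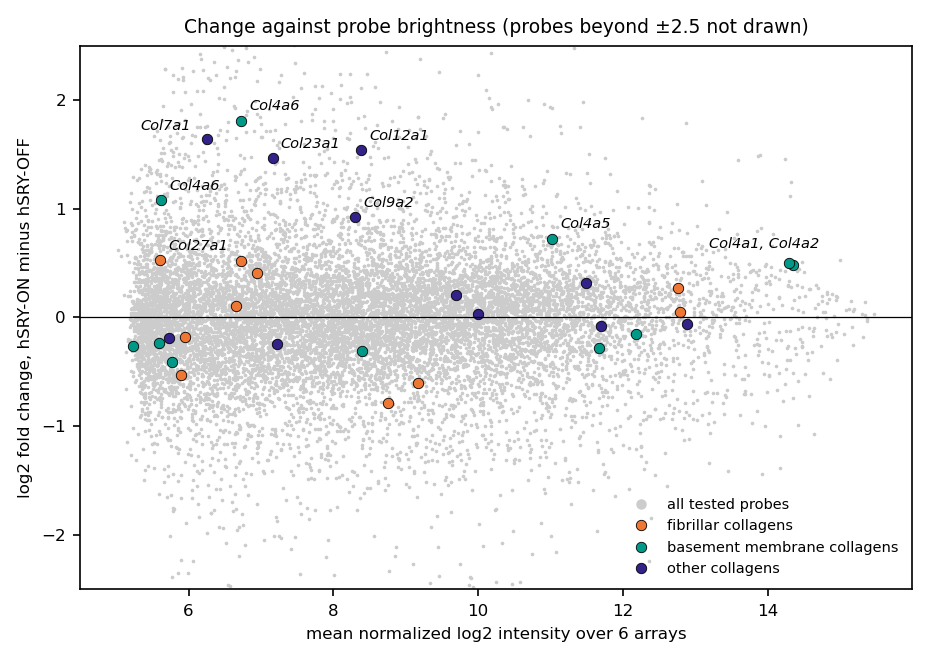
Log2 fold change (hSRY-ON minus hSRY-OFF, y axis) against the mean normalized log2 intensity over the 6 arrays (x axis) for the 12970 tested probes (grey, those beyond 2.5 in either direction not drawn) and the 32 tested collagen probes (coloured by class). The called collagens are labelled and lie at all intensities, from Col27a1 and Col4a6 near the detection limit to Col4a1 and Col4a2 among the brightest.

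The collagens not tested were 12 genes seen on fewer than 3 arrays by each of their probes, among them Col5a2, Col10a1, Col13a1 and Col28a1, detected on no array. Col2a1, the main collagen of cartilage, was not tested because both of its probes were detected only in hSRY-ON replicate 1, at 7.26 and 7.27. In the other 5 hearts they read between 4.62 and 5.16. Col9a2, a FACIT chain that accompanies type II collagen, was highest in the same heart. It read 7.89, 7.71 and 7.93 in hSRY-OFF and 9.27, 8.58 and 8.44 in hSRY-ON, and the groups did not overlap. The log2 fold change was 0.92 with a standard error of 0.22 (limma adjusted p = 0.0187). Without hSRY-ON replicate 1 it was 0.67 and still called, while the call was lost without hSRY-OFF replicate 1 (adjusted p = 0.0523), without hSRY-OFF replicate 2 (adjusted p = 0.0625) and without normalization (adjusted p = 0.0563).

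Of 7 cartilage marker genes with a probe, 3 were tested and 0 called, and Acan, Matn1, Lect1 and Hapln1 did not pass the detection filter. Chad, the brightest of these, read 7.91 in hSRY-ON replicate 1 and between 5.41 and 6.91 elsewhere. The other tested genes, Comp and Sox9, named after their values were seen, were also highest in that heart, at 6.96 and 7.11. The summed level of the 3 genes, on the linear scale, was 503 in that heart at the top of the hSRY-ON range, which began at 160, and 169 to 198 in hSRY-OFF. The part of cartilage cells in the Col9a2 result was not tested, beyond the value without that heart.

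**Figure D4:**
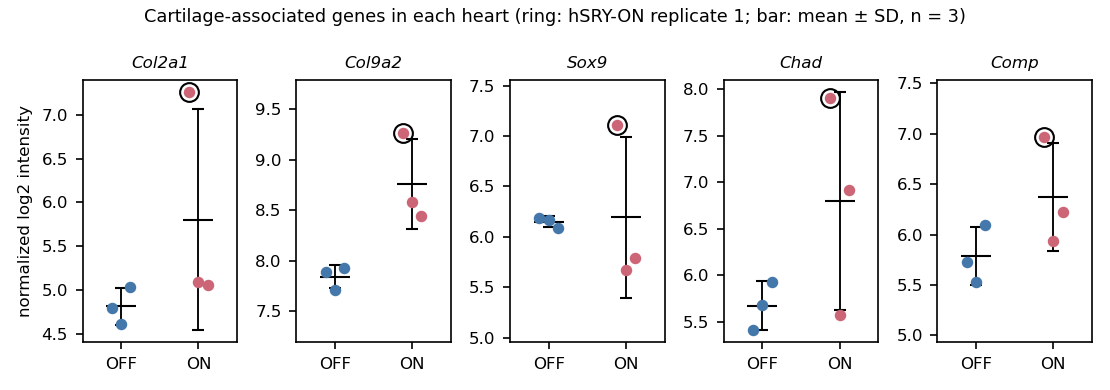
Normalized log2 intensity (y axis, own range in each panel) of Col2a1, Col9a2, Sox9, Chad and Comp in each of 3 hSRY-OFF and 3 hSRY-ON hearts, with the mean and SD as black bars and a ring around hSRY-ON replicate 1. That heart is highest for all 5 genes, at 7.26 for Col2a1 and 9.27 for Col9a2, and the other hSRY-ON hearts exceed the hSRY-OFF hearts for Col9a2.

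Genes that fold, trim, cross-link, decorate or bind collagen were counted in 5 lists. Of 56 listed genes with a probe 43 were tested, of which 15 rose (beside 14.9% of all tested genes), 1 fell (beside 13.9%) and 27 were not called. Their median log2 fold change was 0.30. The genes called include some that act on collagens named above, and 6 of the 16 calls were kept in every alternative setting.

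Among the genes of chain folding and modification 6 of 19 rose and 1 fell. Leprel1, also called P3h2, encodes a prolyl 3-hydroxylase known to act on type IV collagen. It read 6.89, 6.47 and 6.59 in hSRY-OFF and 9.52, 9.95 and 9.56 in hSRY-ON, a log2 fold change of 3.02 with a standard error of 0.17 (limma adjusted p = 6.04e-05). Other genes that rose were P4ha3 (1.31) and P4ha2 (0.75), subunits of the prolyl 4-hydroxylases that stabilise the helix. Also higher were Plod2 (1.12), a lysyl hydroxylase, Fkbp10 (0.88), a collagen chaperone, and Lepre1 (0.66), a further prolyl 3-hydroxylase. Further Lepre1 probes had 0.56, called, and 0.12, not called, and the call of its brightest probe was kept in 11 of 16 alternative settings. Glt25d2, a collagen galactosyltransferase, fell by 0.89 on the log2 scale (limma adjusted p = 0.0173).

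P4ha1 and Serpinh1, the latter encoding the chaperone HSP47, were not called. P4ha1 had a log2 fold change of -0.58 (limma adjusted p = 0.139). Serpinh1 read 11.15, 11.21 and 10.66 in hSRY-OFF and 10.64, 10.13 and 10.48 in hSRY-ON, all lower in hSRY-ON. Its log2 fold change was -0.59 (limma adjusted p = 0.0612), and it was called lower in 5 of 16 alternative settings.

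Cross-linking genes were higher in 3 of the 3 tested. Lox, encoding lysyl oxidase, read 10.35, 10.38 and 10.81 in hSRY-OFF and 12.13, 11.34 and 11.42 in hSRY-ON. The groups did not overlap, and the log2 fold change was 1.11 with a standard error of 0.24 (limma adjusted p = 0.0119). Tgm2, a transglutaminase, rose by 1.03 and Loxl1, an enzyme mainly tied to elastic fibres, by 0.56, and the latter call was lost in 4 of 16 settings. Among genes of propeptide processing 2 of 5 rose, Adamts2, the amino-propeptidase of fibrillar procollagens (1.01), and Pcolce2, an enhancer of the carboxy-propeptidase (0.58, a call lost in 6 of 16 settings, with the other tested probe at 0.093 and not called).

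Of 11 fibril-associated proteoglycans and glycoproteins 2 rose and 0 fell by their brightest probes. Bgn (biglycan) read 13.72, 13.61 and 13.72 in hSRY-OFF and 14.50, 14.46 and 14.38 in hSRY-ON, a log2 fold change of 0.76 (limma adjusted p = 0.00254). Fmod (fibromodulin) had 0.45, a call lost in 8 of 16 settings. Sparc, a matrix protein that binds collagen during secretion, had 0.30 (limma adjusted p = 0.0873) and was not called. Dcn (decorin) was -0.30 and not called by its brightest probe and -0.90 and called by another (limma adjusted p = 0.0108), so its probes disagree.

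Among collagen receptors 2 of 5 rose. Itga11, the integrin subunit for fibrillar collagens, had a log2 fold change of 1.14, with hSRY-ON values of 8.43, 6.90 and 7.33 against 6.40, 6.32 and 6.53. Mrc2, a receptor for collagen uptake, had 0.40. Those calls, by the brightest probes, were lost in 7 and 13 of 16 alternative settings. The other tested probe of each gene was also called, at 0.90 for Itga11 and 0.82 for Mrc2. Ddr2, a collagen-binding kinase of fibroblasts, did not pass the detection filter.

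**Figure D5:**
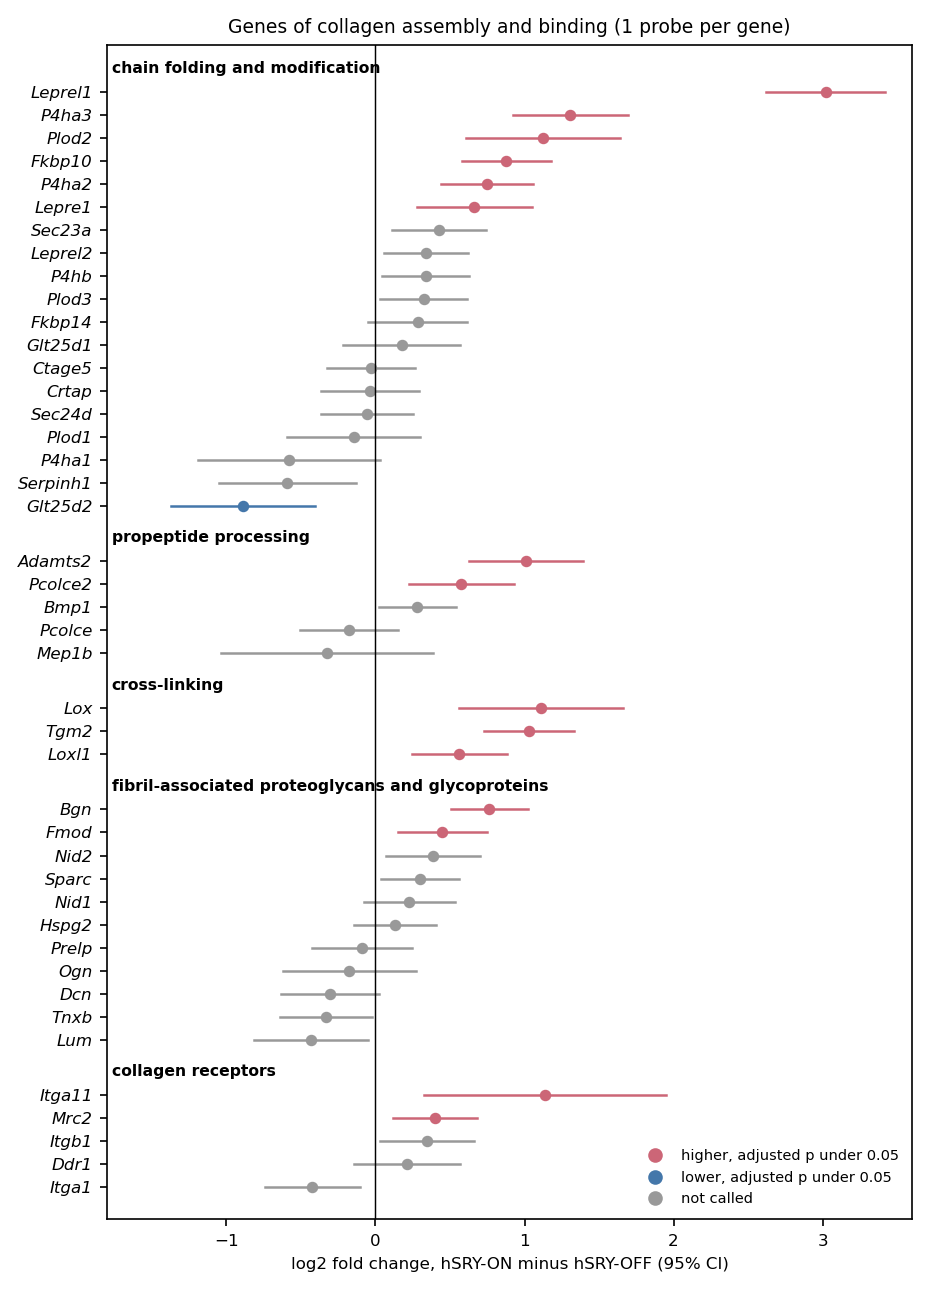
Log2 fold change (hSRY-ON minus hSRY-OFF, x axis) with its 95% confidence interval, not adjusted for multiple testing, for the 43 tested genes of 5 lists of collagen assembly and binding, by the brightest probe of each gene. Red genes were called higher (15), the blue gene lower (1) and grey genes were not called (27), with Leprel1 at 3.02 furthest to the right and Glt25d2 at -0.89 furthest to the left.

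Marker genes of the cell types of the heart also differed between groups, and in bulk RNA fewer cells of a type and less RNA per cell cannot be told apart. Over all tested genes 14.9% were called higher and 13.9% lower. Of 7 tested cardiomyocyte markers 4 fell and 0 rose, and their summed level was 120564 to 127756 in hSRY-ON and 131382 to 142767 in hSRY-OFF. Those that fell were Pln (-1.47), Tnni3 (-1.13), Ryr2 (-1.09) and Myh6 (-0.51 by its brightest probe and -1.97 by the other). The call of the brightest Myh6 probe was kept in 10 of 16 alternative settings. Those of Pln and Tnni3 were kept in 16 of 16, and that of Ryr2 in the 15 that tested it. The brightest, Myl3 and Myl2, sat at the top of the intensity range, where quantile normalization fixes the values (Myl2 at 15.37 in each hSRY-ON heart). Their differences of -0.033 and -0.019 thus carry no information. Since Myl3 and Myl2 make up most of the summed level, it says little about the other markers. Of 7 tested fibroblast markers 1 rose and 0 fell by their brightest probes. Their summed levels were 27898 to 31018 in hSRY-ON and 30643 to 34095 in hSRY-OFF. Dcn, the brightest, was at -0.30 and not called by its brightest probe and at -0.90 and called lower by another. The call of Tcf21, which rose, was kept in 14 of 16 alternative settings. Of the activated fibroblast markers 2 of 2 tested rose. Acta2, the brighter, was at 0.53 by its brightest probe, near the top of the intensity range, and between 1.26 and 1.48 by 3 further probes, all called. By their brightest probes, the calls of Acta2 and of Tnc, the other gene, were each kept in 11 of 16 alternative settings. Summed levels were 39579 to 43822 in hSRY-ON against 25722 to 31475 in hSRY-OFF, and Acta2 makes up most of them. Postn, Cthrc1 and Fap did not pass the detection filter. Of these, Fap was detected in 2 of 3 hSRY-OFF and 0 of 3 hSRY-ON hearts, with means of 5.60 and 4.96 and no overlap.

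Among vessel cell markers, 1 of 6 endothelial genes rose and 2 fell, the brightest, Egfl7, differing by -0.15. Their summed levels were 20437 to 21980 in hSRY-ON and 21197 to 22885 in hSRY-OFF. The call of Emcn, which rose, was kept in 10 of 16 alternative settings. For those that fell, the call was kept in 8 of 16 for Tek and in 16 of 16 for Cdh5. Of 5 pericyte and smooth muscle markers 1 rose and 4 were not called. The one that rose was Tagln, at 1.81 (limma adjusted p = 0.00766), a call kept in 16 of 16 alternative settings. Rgs5, the brightest, was at -0.57 and not called, and the summed levels overlapped (2232 to 2725 against 2184 to 3086). Macrophage markers rose in 3 of 5, with C1qb at 0.92 and summed levels of 2269 to 2786 against 1284 to 1422. Those calls were kept in 16 of 16 alternative settings for Cd68 and C1qb and in 15 of 16 for C1qa. Epicardial markers were called in 0 of 3 (brightest Upk3b, -0.045, summed levels 1601 to 1986 against 1577 to 1989), and of 2 adipocyte markers 1 rose, Adipoq at 1.48 (165 to 372 against 60.9 to 119). Adipoq was dim, at 4.82, 5.49 and 5.84 in hSRY-OFF, where it was detected in 2 of 3 hearts. In hSRY-ON it read 7.49, 6.07 and 7.04. Its call was kept in 9 of the 15 alternative settings that tested it. Plin and Cidec did not pass the detection filter. The part of these cell types in the collagen differences was not tested.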

How the data were processed

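RNA of 6 hearts was labelled with biotin and read on 1-colour BeadChips. The deposited table held, per probe and array, an intensity on the linear scale, not normalized by the authors, with a detection p-value deposited beside it, and 0 columns were left unmapped. How the authors' software summarised the beads is not given in the sources used here. The submitters' processing notes name limma, and the study's methods name TCC. Because TCC models counts, limma was used for these intensities and a scaling in the manner of TCC was kept as an alternative. With limma 3.58.1 in R 4.3.3, intensities were corrected by normexp with an offset of 16, using negative controls inferred from the detection p-values, quantile normalized and put on the log2 scale (neqc). Of 25697 probes, the 12970 with detection p under 0.05 on at least 3 arrays were fitted with lmFit and eBayes, two-sided, hSRY-ON against hSRY-OFF without covariates, and adjusted by Benjamini-Hochberg over all of them. The fit was also run on simulated data, in which only brighter probes were changed, by more than Col4a1 or Col4a2. That run therefore says nothing about the calls of dim probes or about small changes. A gene was described by its brightest tested probe. The array has no read depth, and its precision is limited by the 3 arrays per group. The correction's offset compresses the folds of dim probes.

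The collagens and the lists were chosen with earlier results of these data known. The genes named were every called collagen probe, the brightest collagen of each class, from each further list the called genes with the largest increase and decrease, Lox, Serpinh1, P4ha1, Sparc and Ddr2 whatever their values, and the brightest gene of each marker list. One marker list is not reported here. Others named among the lists were chosen after their values were seen. Promoter windows were read from RefSeq tables of GRCm38.p6 with Python 3.11.15, and figures were drawn with matplotlib 3.10.9. Alternatives changed the background correction, the scaling, the filter, the variance prior and a replicate block, and left out each array in turn.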

Additional observations from a re-analysis of the deposited data

How the results depend on the processing

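Over the alternative settings, 497 of the values of single probes kept direction and call, 29 lost the call, 10 gained it and 11 turned direction, among probes of the name rule. Collagen probes called higher numbered 5 without normalization between arrays, which moved the median of all tested probes to -0.12 and the share of calls that were higher from 50.1% to 38.5%, and 6 to 11 when single arrays were left out. At that setting 731 of all tested probes were called higher and 1166 lower, and without single arrays 1131 to 1809 and 1108 to 1905. Called lower was 1 collagen probe without background correction, with the offset of 50, without normalization and with an intensity trend, and 0 to 1 without single arrays. Genes of the assembly and binding lists called higher numbered 7 without normalization and 9 to 13 without single arrays. Those called lower numbered 5 without background correction and with the intensity trend, 3 with the offset of 50 and with detection on all 6 arrays, 2 with TCC scaling, with detection p under 0.01 and with the replicate block, and 0 to 3 without single arrays. The median of basement membrane collagens was 0.22 without normalization, 0.33 with median scaling or TCC scaling, 0.16 without a filter and -0.15 over all probes rather than genes, where the negative probes of Col18a1 and Col4a4 count more than once. That of fibrillar collagens was -0.042 without normalization. That of the other collagens was 0.054 without a filter, 0.20 over all probes, 0.20 with Col15a1 and Col18a1 moved to it, and 0.31 to 0.43 without single arrays.

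Directions turned for values near 0. Col14a1 was -0.074, Col1a1 -0.071 and Col1a2 -0.013 without normalization. Without single arrays Col14a1 ranged from -0.15 to 0.37, Col1a1 from -0.014 to 0.12, Col1a2 from -0.066 to 0.28 and Col9a1 from -0.47 to 0.069. The change of Col1a1 minus Col1a2 was 0.013 without background correction and -0.22 to 0.17 without single arrays, and that of Col4a1 minus Col4a2 was -0.075 to 0.021 without single arrays. The cause of these changes was not tested. The pairs Col5a1 with Col5a2 and Col6a1 with Col6a3 were planned but not run, since Col5a2 was detected on no array and no Col6a3 probe was used here.

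Deviations of same-numbered hearts correlated at -0.025, 0.038 and -0.066, so no pairing by replicate number was seen. These values cannot tell whether same-numbered hearts shared a litter or a batch. With the replicate number as a block 8 collagen probes were called, with Col4a1 (adjusted p = 0.0525) and Col27a1 (adjusted p = 0.0653) lost. Signal near background limits Col27a1, Col7a1, Col4a4 and a Col4a6 probe.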
